A study of Homo sapiens with 6 samples.

Results

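Amino acid transporters are membrane proteins that move amino acids into and out of cells. The 10 genes described here encode carriers of neutral and basic amino acids, and 1 of them encodes the heavy chain that several carriers need to reach the cell surface. They are *SLC1A4*, *SLC1A5*, *SLC3A2*, *SLC7A1*, *SLC7A5*, *SLC7A6*, *SLC7A7*, *SLC38A1*, *SLC38A2* and *SLC43A1*. They were taken by their symbols from a table of 20348 genes, and each symbol stood on 1 row. RNA-seq was made from MV4-11 cells, an established human line of acute myeloid leukaemia. Cells of the WNK463 group received 1 μM WNK463, an inhibitor of the WNK kinases, for 48 h, and Control cells were untreated and collected at 48 h, with n = 3 in each group. The comparison addressed which transcripts change when leukaemia cells are exposed to the inhibitor.

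The total counts were 17411780, 15328483 and 17246723 in Control and 15824474, 16171235 and 14915745 with WNK463. The labels do not say that the replicates were separate cultures, so p-values measure the spread between these samples, which may be technical. Of 15 myeloid leukaemia markers, 14 were abundant enough to be tested, with 7 higher and 6 lower after WNK463 at an adjusted p below 0.05 from edgeR. Of all 11973 genes tested, 35.5% were higher and 35.3% lower. The summed level of the markers was 2718, 2762 and 2835 counts per 1000000 (CPM) in Control and 1890, 1882 and 1908 CPM with WNK463, and *LYZ* was the most abundant. Without *LYZ*, which fell from 1355 to 291 CPM, the other markers summed to 1392, 1428 and 1429 CPM in Control and 1603, 1600.0 and 1604 CPM with WNK463. *CD14* was below the filter on low counts. The markers *CD3D*, *MS4A1*, *HBB*, *HBA1*, *PF4*, *EPCAM* and *COL1A2* of other cell types had 0 counts in all 6 samples. A count of 0 allows up to 3 counts, or 0.174 to 0.206 CPM depending on the library, for counting error only. The epithelial keratin genes *KRT8* and *KRT18* were present, with summed epithelial marker levels of 18.9, 20.7 and 19.0 CPM in Control and 18.5, 18.6 and 19.3 CPM with WNK463. Within this sum *KRT8* was higher (log2 fold change 0.41, adjusted p = 0.00424 from edgeR) and *KRT18* lower (-0.68, adjusted p = 1.6e-04 from edgeR). The fibroblast markers summed to 0.731, 1.17 and 0.366 CPM in Control and 1.75, 1.22 and 1.60 CPM with WNK463, mostly from *PDGFRB*. The part of these markers in the results was not tested.

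Cells cannot make the essential amino acids and take them up through such carriers. *SLC7A5* imports large neutral amino acids such as leucine, in exchange for other amino acids, and works as a pair with the heavy chain *SLC3A2*. *SLC1A5* carries glutamine and other neutral amino acids. Intracellular amino acids are sensed by the mTORC1 kinase complex, and a shortage of them activates the transcription factor ATF4, which is known to bind a short DNA element in the genes it regulates, several transporter genes among them.

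The promoter windows of the 10 genes were searched for 2 short motifs, since factors that bind these letters are known to regulate amino acid transporter genes. All 10 genes had at least 1 window in the RefSeq table (build GRCh38.p14), 19 windows in all, each from 250 bases before to 50 bases after an annotated start. The core of the amino acid response element, TGATGNAA, was found on either strand in 1 window each of *SLC1A4*, *SLC1A5*, *SLC3A2*, *SLC7A1* and *SLC38A1*. It was found in 3.62% of all 35116 windows. The E-box CACGTG was found in 1 window each of *SLC1A5*, *SLC7A5*, *SLC7A7* and *SLC43A1*, and in 7.26% of all windows. The 2 motifs did not overlap in any of these windows. A match describes the letters in a window and is not evidence of binding. The stretches below are those of the genes with the largest fold changes and of *SLC7A5* and *SLC1A5*, and the capitals mark the motif. They lie at chr16:87869587-87869682 for *SLC7A5*, chr11:57515764-57515859 for *SLC43A1*, chr13:29595663-29595692 for *SLC7A1*, chr12:46266502-46266531 for *SLC38A1* and chr19:46784893-46784922 for *SLC1A5*, each on the minus strand.
SLC7A5: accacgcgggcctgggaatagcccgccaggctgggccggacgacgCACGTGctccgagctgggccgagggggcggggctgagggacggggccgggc
SLC43A1: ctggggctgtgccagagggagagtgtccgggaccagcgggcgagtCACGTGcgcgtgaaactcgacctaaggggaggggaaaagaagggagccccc
SLC7A1: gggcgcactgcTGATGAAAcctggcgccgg
SLC38A1: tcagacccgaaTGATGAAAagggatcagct
SLC1A5: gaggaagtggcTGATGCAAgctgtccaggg
The *SLC7A5* motif ended 125 bases and the *SLC43A1* motif 107 bases before the RefSeq start of their window. These RefSeq starts, at position 87869507 for *SLC7A5* and 57515702 for *SLC43A1*, differ from the gene starts in GENCODE, which are 87869488 and 57515786. Neither motif lay in an annotated exon. The *SLC7A1* motif lay 8 to 15 bases after the RefSeq start, in an exon outside the coding part, and the *SLC38A1* motif crossed a start that GENCODE places within an intron of the gene. The *SLC1A5* motif ended 90 bases before an alternative start inside the gene.

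Compared with Control, 6 of the 10 genes passed edgeR's quasi-likelihood test at an adjusted p below 0.05. *SLC38A1* and *SLC38A2* were higher after WNK463, and *SLC7A1*, *SLC43A1*, *SLC1A5* and *SLC7A5* were lower. The other genes, *SLC1A4*, *SLC3A2*, *SLC7A6* and *SLC7A7*, did not pass. Of all 11973 genes tested, 70.8% passed, 35.5% higher and 35.3% lower, so 6 of 10 called genes is not above the share among all genes. The same 6 genes had groups that did not overlap, against 73.5% of all tested genes. At least 2-fold changes were called for *SLC38A1* among higher genes and for *SLC7A1* and *SLC43A1* among lower genes, against 9.62% and 5.55% of all tested genes. The median log2 fold change of the 10 genes was -0.12, and that of all tested genes was 0.02. Scaling by total counts, without TMM factors, raised the median of all tested genes by 0.15, with 63.9% of called genes higher in place of 50.2%. In bulk RNA, fewer cells of a type and less RNA per cell cannot be told apart.

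**Figure D1:**
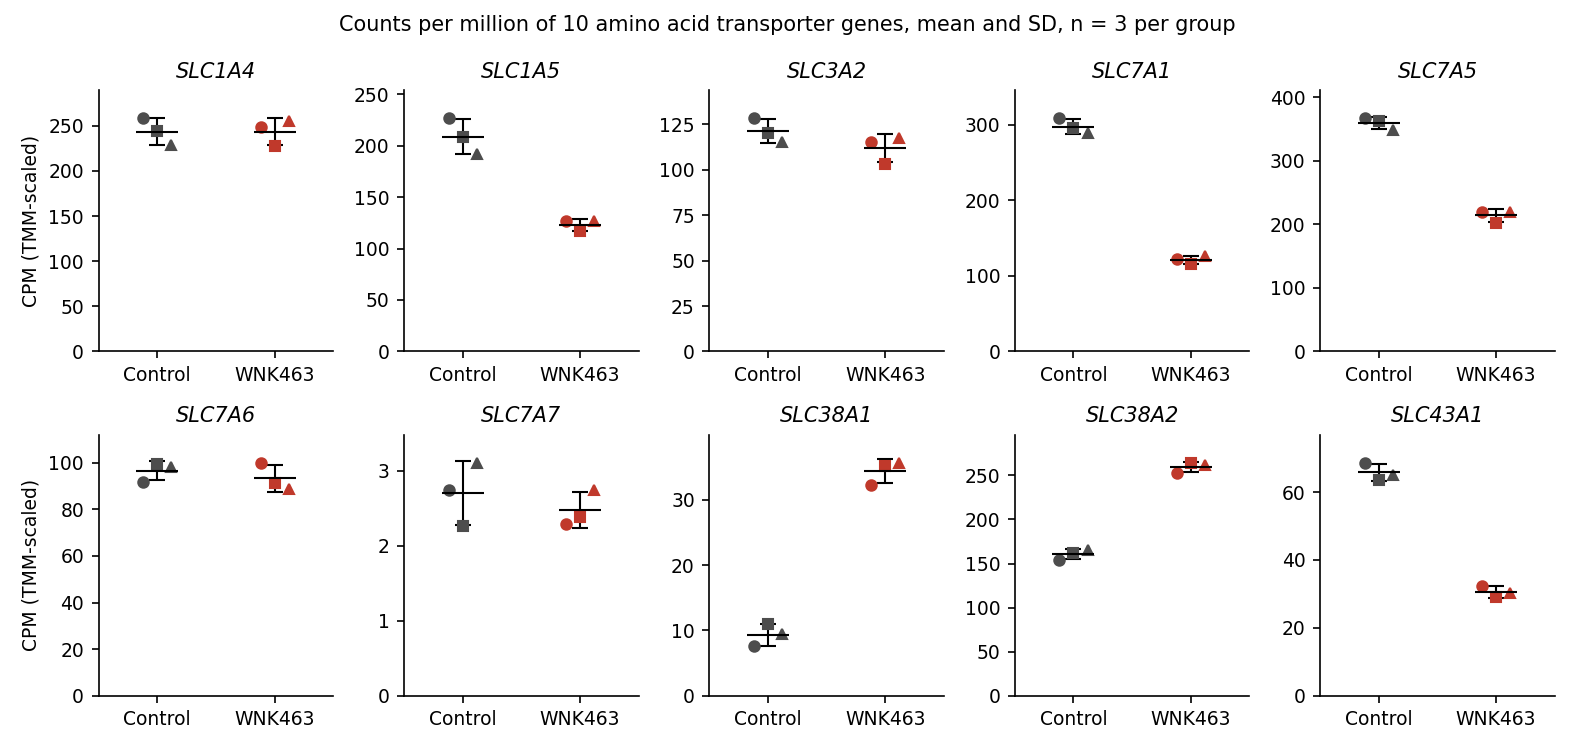
CPM, scaled with TMM factors, of each of the 10 genes in Control (grey) and WNK463 (red). Each symbol is 1 sample, shaped by replicate number, the horizontal line is the mean and the error bars are the SD (n = 3). Each axis starts at 0. *SLC38A1* and *SLC38A2* sit higher with WNK463 in all 3 samples, and *SLC7A1*, *SLC43A1*, *SLC1A5* and *SLC7A5* sit lower.

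*SLC38A1* and *SLC38A2* encode sodium-coupled carriers of small neutral amino acids, glutamine among them. They lie near each other on chromosome 12, at chr12:46183063-46270017 (ENSG00000111371) and chr12:46358189-46372867 (ENSG00000134294), both on the minus strand. *SLC38A1* had 7.55, 10.9 and 9.39 CPM in the 3 Control samples and 32.2, 35.1 and 35.7 CPM in the 3 WNK463 samples. Every WNK463 value lay above every Control value. The mean rose from 9.28 ± 1.68 to 34.4 ± 1.84 CPM (mean ± SD, n = 3), 3.71-fold. Its log2 fold change was 1.89 (SE 0.11, adjusted p = 5.1e-11 from edgeR), higher in 3 of 3 samples. Counts were few, from 124 to 159 in Control.

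*SLC38A2*, the more abundant gene of the pair, had 155, 162 and 165 CPM in Control and 253, 264 and 262 CPM with WNK463. All 3 WNK463 samples were above all 3 Control samples. The mean rose from 161 ± 5.55 to 259.6 ± 6.12 CPM (mean ± SD, n = 3), and the log2 fold change was 0.69 (SE 0.05, adjusted p = 5.4e-10 from edgeR).

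*SLC7A1* encodes a carrier of basic amino acids such as arginine and lysine and lies at chr13:29509410-29595688 on the minus strand (ENSG00000139514). It had 309, 296 and 289 CPM in Control and 123, 116 and 126 CPM with WNK463. The groups did not overlap. The mean fell from 298 ± 9.83 to 121 ± 5.12 CPM (mean ± SD, n = 3). Its log2 fold change was -1.30 (SE 0.05, adjusted p = 3.0e-13 from edgeR), the smallest p of the 10 genes and rank 82 among all tested genes.

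*SLC43A1* encodes a carrier of large neutral amino acids that needs no heavy chain, and lies at chr11:57484534-57515786 on the minus strand (ENSG00000149150). Its values were 68.7, 63.7 and 65.1 CPM in Control and 32.4, 29.1 and 30.4 CPM with WNK463, again without overlap. The mean fell from 65.8 ± 2.58 to 30.6 ± 1.69 CPM (mean ± SD, n = 3), with a log2 fold change of -1.10 (SE 0.07, adjusted p = 9.2e-11 from edgeR). This gene did not reach 2-fold under total-count scaling or in TPM, where its log2 fold change was -0.95 and -0.91.

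*SLC7A5* and its partner *SLC3A2* did not change alike. *SLC7A5*, at chr16:87830023-87869488 on the minus strand (ENSG00000103257), had 366, 362 and 349 CPM in Control and 220.0, 202 and 219 CPM with WNK463. All 3 treated samples were below all 3 Control samples. The mean fell from 359 ± 9.11 to 214 ± 9.86 CPM (mean ± SD, n = 3), a log2 fold change of -0.75 (SE 0.05, adjusted p = 2.1e-10 from edgeR).

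*SLC3A2*, at chr11:62856102-62888875 on the plus strand (ENSG00000168003), had 128, 120.0 and 116 CPM in Control and 115, 103 and 118 CPM with WNK463. The ranges overlapped. The means were 121 ± 6.48 and 112 ± 7.80 CPM (mean ± SD, n = 3), with a log2 fold change of -0.12 (SE 0.06, adjusted p = 0.0923 from edgeR). The direction was opposite with total counts, at 0.04, and in TPM, at 0.11. Without Control replicate 3 the gene was called lower, with -0.16 and an adjusted p of 0.0314 from edgeR, and over all 15 alternatives the adjusted p ranged from 0.0314 to 0.674.

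*SLC1A5* and *SLC1A4* encode 2 related sodium-dependent exchangers of neutral amino acids, and glutamine is carried by the product of *SLC1A5*. *SLC1A5*, at chr19:46774883-46788594 on the minus strand (ENSG00000105281), had 226, 208 and 192 CPM in Control and 127, 117 and 127 CPM with WNK463. The groups did not overlap, although the Control values spread over a wider range than the treated ones. The mean fell from 209 ± 17.4 to 123 ± 5.84 CPM (mean ± SD, n = 3), a log2 fold change of -0.76 (SE 0.06, adjusted p = 3.5e-09 from edgeR).

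*SLC1A4*, at chr2:64988477-65023865 on the plus strand (ENSG00000115902), had 258, 244 and 228 CPM in Control and 248, 227 and 255 CPM with WNK463. The ranges overlapped almost fully, with means of 243 ± 14.98 and 244 ± 14.6 CPM (mean ± SD, n = 3). Its log2 fold change was 0.00 with a 95% interval from -0.11 to 0.11. With total counts the gene was called higher (log2 fold change 0.15, adjusted p = 0.0166 from edgeR), and over all 15 alternatives the adjusted p ranged from 0.0166 to 0.98. In the 3 fits on TPM it was also called higher, with a log2 fold change of 0.19 in each and adjusted p-values from limma of 0.0242 to 0.0403. The difference between *SLC1A4* and *SLC1A5* does not depend on the scaling and is given as a ratio below.

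*SLC7A6* and *SLC7A7* encode light chains that exchange basic for neutral amino acids and also pair with *SLC3A2*. *SLC7A6*, at chr16:68264516-68301823 on the plus strand (ENSG00000103064), had 91.9, 99.7 and 98.2 CPM in Control and 100.1, 91.2 and 88.7 CPM with WNK463. The groups overlapped, and the log2 fold change was -0.05, with a 95% interval from -0.16 to 0.07 and adjusted p = 0.465 from edgeR. It was 0.10 with total counts and 0.20 in TPM, neither past the threshold. The gene *SLC7A6OS* covers 44.4% of its exon bases on the opposite strand. Whether the counting used strand is not given in the sources used here, so counts of *SLC7A6* are uncertain.

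*SLC7A7*, at chr14:22773222-22829820 on the minus strand (ENSG00000155465), was the least abundant of the 10 by counts, with 33 to 51 counts per sample. It had 2.74, 2.26 and 3.11 CPM in Control and 2.29, 2.38 and 2.75 CPM with WNK463, and the groups overlapped. Its log2 fold change of -0.13 had a 95% interval from -0.61 to 0.34, wider than that of any other of the 10 genes. Antisense transcripts of other genes overlap *SLC1A5* over 23.4% and *SLC7A5* over 5.71% of their exon bases. These antisense transcripts and the *SLC7A5* pseudogenes *SLC7A5P1* and *SLC7A5P2* have no row of their own in the table used, and a part of reads from them in the counts cannot be told apart.

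**Figure D2:**
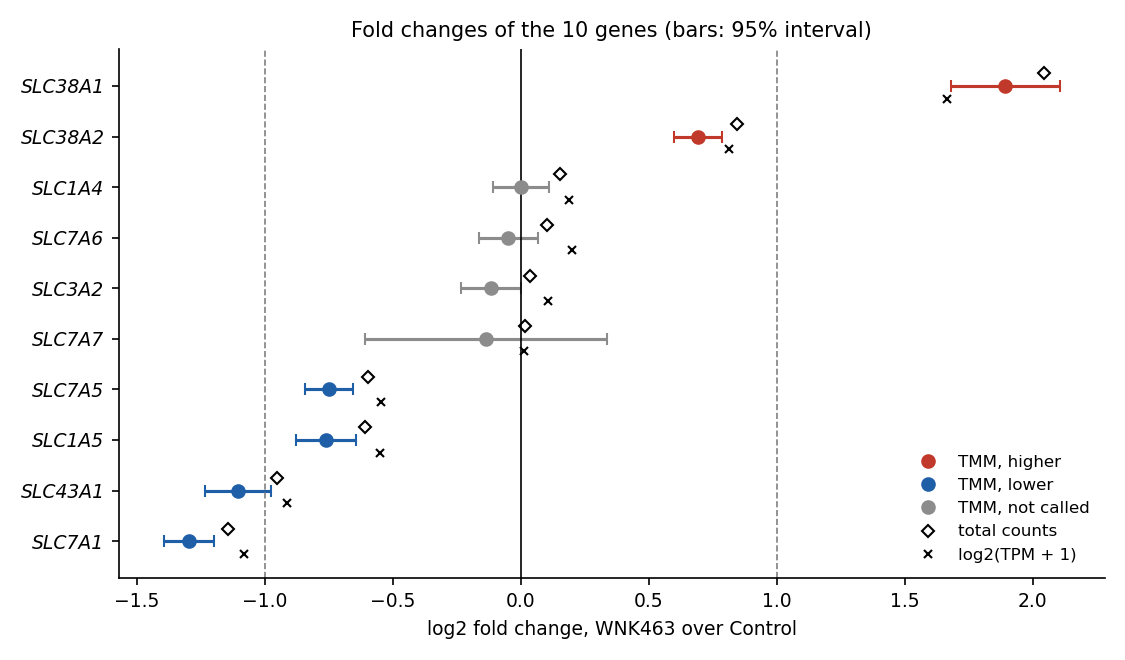
Log2 fold change of each gene, WNK463 over Control, from edgeR with TMM scaling (filled circles, bars are 1.96 SE), from total-count scaling (diamonds) and on the log2(TPM + 1) scale (crosses). Dashed lines mark 2-fold. *SLC38A1* is highest at 1.89 and *SLC7A1* lowest at -1.30, and the grey genes, *SLC1A4*, *SLC7A6*, *SLC3A2* and *SLC7A7*, have intervals that include 0 and lie to the right of 0 with total counts and TPM.

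Levels were compared between genes per length, in TPM (transcripts per 1000000). In Control the order was *SLC1A5* (167 ± 13.8), *SLC7A5* (149.9 ± 3.74), *SLC3A2* (113 ± 5.56), *SLC1A4* (102 ± 5.19), *SLC7A1* (75.3 ± 1.80), *SLC38A2* (68.4 ± 7.26), *SLC43A1* (58.5 ± 0.344), *SLC7A6* (31.0 ± 2.08), *SLC7A7* (2.78 ± 0.485) and *SLC38A1* (2.76 ± 0.408; SD, n = 3 each). The ranges of *SLC1A5* and *SLC7A5*, of *SLC7A1* and *SLC38A2*, and of *SLC7A7* and *SLC38A1* overlapped. With WNK463 the first 4 genes, *SLC3A2* (122 ± 8.09), *SLC38A2* (121 ± 5.66), *SLC1A4* (116 ± 7.87) and *SLC1A5* (113 ± 5.20), overlapped from 1 neighbour to the next. *SLC7A5* followed at 102 ± 4.03 TPM, below the range of *SLC1A5*. *SLC7A6* (35.9 ± 4.25), *SLC7A1* (35.1 ± 1.24) and *SLC43A1* (30.7 ± 3.06) overlapped with their neighbours. *SLC38A1* (10.9 ± 0.871) then stood above *SLC7A7* (2.80 ± 0.229). The summed level of the 10 genes was 787, 777 and 746 TPM in Control and 716, 657 and 698 TPM with WNK463. The treated sums were all below the Control sums.

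Ratios between 2 genes of the same sample do not change with the scaling of the library. In TPM they do follow the gene length used in each sample, which can be read from the count per TPM. This count per TPM, relative to the median gene, was 2.02, 2.38 and 2.65 for *SLC38A1* in Control and 2.51, 2.34 and 2.54 with WNK463. For *SLC7A7* it was 0.794, 0.481 and 0.82 in Control and 0.609, 0.737 and 0.732 with WNK463. The ratio of *SLC7A5* to *SLC3A2* in TPM was 1.27, 1.34 and 1.35 in Control and 0.824, 0.864 and 0.822 with WNK463. *SLC7A5* thus had more TPM than its heavy chain in every Control sample and less in every WNK463 sample. The log2 difference was -0.66, with an exact two-sided permutation p of 0.10, the smallest that 3 samples against 3 allow, and 0.15 after Benjamini-Hochberg adjustment over the 6 ratios. The ratio of *SLC1A4* to *SLC1A5* was 0.592, 0.608 and 0.631 in Control and 1.00, 1.00 and 1.07 with WNK463, a log2 difference of 0.74 without overlap. The ratio of *SLC38A1* to *SLC38A2* was 0.0419, 0.0469 and 0.0329 in Control and 0.0789, 0.0986 and 0.0942 with WNK463, a log2 difference of 1.17. The ratio of *SLC43A1* to *SLC7A5*, the carriers of large neutral amino acids, was 0.390, 0.382 and 0.400 in Control and 0.325, 0.287 and 0.289 with WNK463. It changed by -0.38 on the log2 scale. Each of these 3 ratios also had an exact permutation p of 0.10, and 0.15 after adjustment. The ratios of *SLC7A6* and *SLC7A7* to *SLC3A2* overlapped between the groups, with log2 differences of 0.10 and -0.09 and exact permutation p-values of 0.50 and 0.70.

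**Figure D3:**
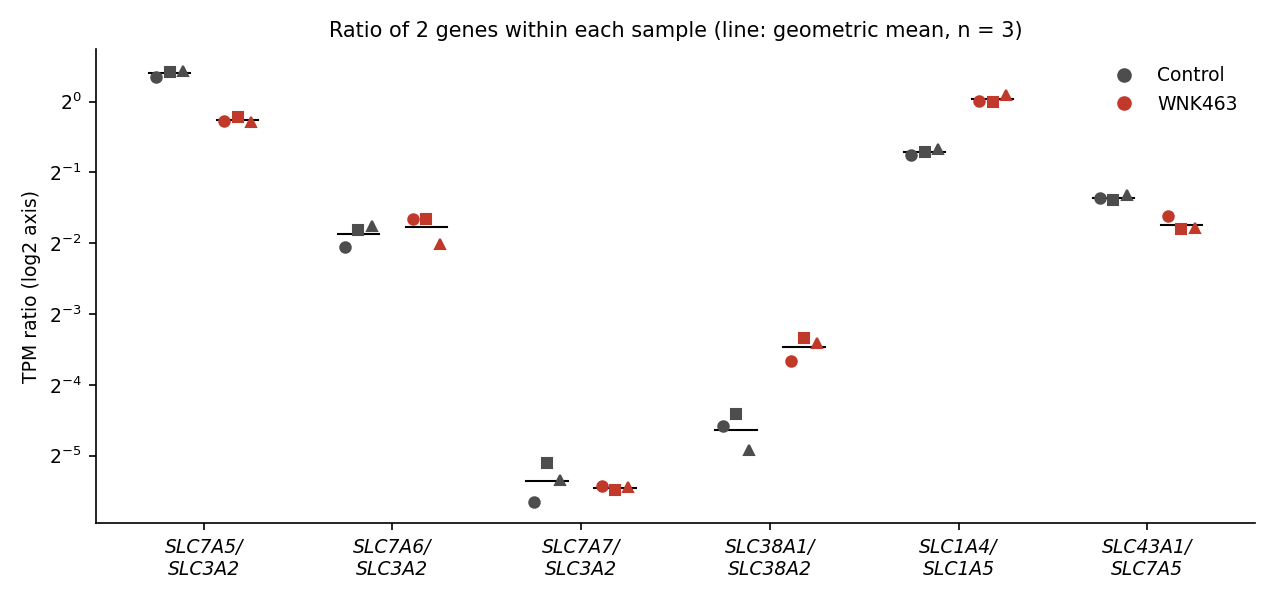
Ratio of the TPM of 2 genes within each sample, on a log2 axis, for Control (grey) and WNK463 (red). Each symbol is 1 sample and the line is the geometric mean (n = 3). The groups do not overlap for *SLC7A5*/*SLC3A2*, *SLC38A1*/*SLC38A2*, *SLC1A4*/*SLC1A5* and *SLC43A1*/*SLC7A5*, and overlap for *SLC7A6*/*SLC3A2* and *SLC7A7*/*SLC3A2*.

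The light chains known to pair with *SLC3A2* were summed as a description of their transcripts, which do not give protein amounts. *SLC7A5* made up 82.5%, 80.3% and 80.3% of the summed TPM of *SLC7A5*, *SLC7A6*, *SLC7A7*, *SLC7A8*, *SLC7A10* and *SLC7A11* in Control and 68.8%, 69.4% and 72.7% with WNK463. *SLC7A6* made up 15.6%, 17.03% and 17.6% in Control and 26.3%, 25.6% and 22.0% with WNK463. *SLC7A11*, the cystine and glutamate exchanger, made up 0.575%, 0.895% and 0.573% in Control and 2.61%, 2.76% and 3.16% with WNK463. *SLC7A7* made up 1.29%, 1.74% and 1.47% in Control and 1.93%, 1.80% and 2.03% with WNK463, and *SLC7A8* made up 0.0698%, 0.0384% and 0% in Control and 0.383%, 0.482% and 0.141% with WNK463. For *SLC7A6*, *SLC7A7*, *SLC7A8* and *SLC7A11* the treated shares were all above the Control shares, and for *SLC7A5* they were all below. A share moves with the level of the other genes, and *SLC7A6* and *SLC7A7* did not pass the test of their own levels. *SLC7A8* was not tested, and its shares rest on 2, 1 and 0 counts in Control and 10, 13 and 4 with WNK463. The *SLC7A7* shares rest on 33 to 51 counts per sample. Control replicate 2 had the lowest *SLC7A7* CPM of the Control samples, 2.26, but the highest TPM, 3.31. The sum of these light chains relative to *SLC3A2* was 1.54, 1.67 and 1.68 in Control and 1.20, 1.24 and 1.13 with WNK463.

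**Figure D4:**
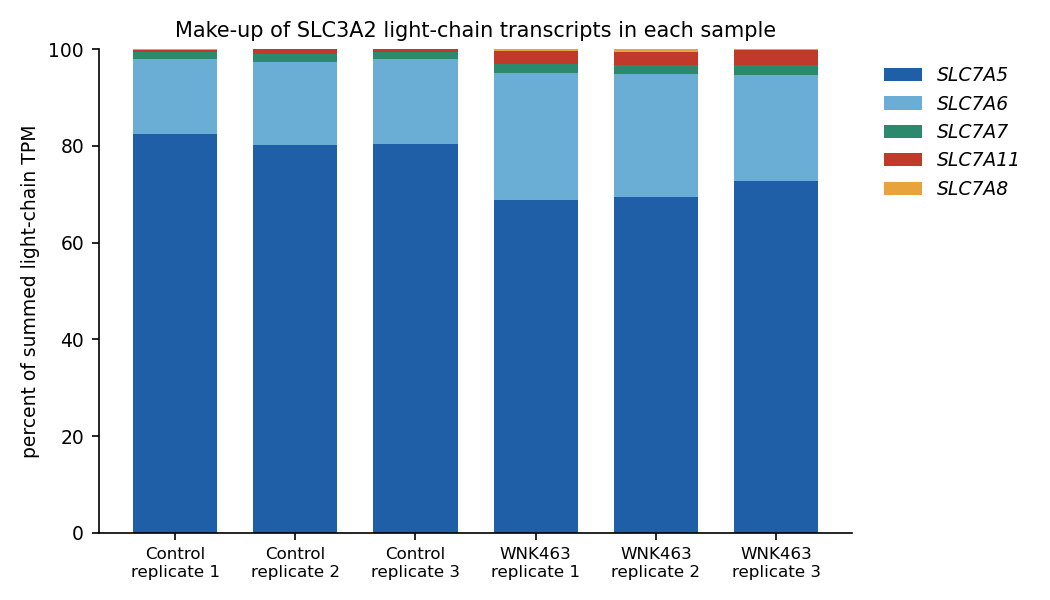
Share of each light-chain gene in the summed light-chain TPM, in percent, for each of the 6 samples. The bars sum to 100, and *SLC7A10* is not drawn since it had 0 counts. *SLC7A5* is the largest share in every sample and is smaller with WNK463, at 68.8% to 72.7%, than in Control, at 80.3% to 82.5%.

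Among 30 other plasma membrane amino acid transporters, 17 had 0 counts in all samples and 6 were abundant enough to be tested. At an adjusted p below 0.05 from edgeR, 3 were higher (*SLC7A11*, *SLC6A6* and *SLC43A2*), 2 were lower (*SLC38A5* and *SLC1A3*) and 1 did not pass. The shares among all tested genes were 35.5% higher and 35.3% lower. *SLC38A5*, a further glutamine carrier of the *SLC38* family, fell from 51.4 ± 2.33 to 13.0 ± 1.43 CPM (mean ± SD, n = 3), opposite to *SLC38A1* and *SLC38A2*. Its log2 fold change was -1.98 (SE 0.09, adjusted p = 1.3e-12 from edgeR). *SLC7A11* rose from 5.62 ± 0.309 to 17.1 ± 1.33 CPM, a log2 fold change of 1.60. The taurine transporter *SLC6A6* rose from 122 ± 4.41 to 233 ± 0.979 CPM. *SLC43A2*, which like *SLC43A1* carries large neutral amino acids, rose from 36.6 ± 1.15 to 52.0 ± 3.78 CPM, a log2 fold change of 0.51 (adjusted p = 3.8e-06 from edgeR). *SLC1A3*, a glutamate transporter, fell from 10.7 ± 0.0207 to 6.19 ± 0.976 CPM but did not pass in TPM. *SLC7A8*, a light chain like *SLC7A5*, had 2, 1 and 0 counts in Control and 10, 13 and 4 counts with WNK463 and was not tested. *SLC7A10* had 0 counts throughout.

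Of 9 lysosomal amino acid transporters tested, 2 were higher, 1 was lower and 6 did not pass, against 70.8% of all tested genes called. *SLC15A3*, a carrier of histidine and peptides, rose from 3.39 ± 0.604 to 5.29 ± 0.354 CPM, and *SLC66A1*, an exporter of basic amino acids, rose from 56.9 ± 1.42 to 67.2 ± 1.17 CPM (mean ± SD, n = 3). *SLC38A7* fell from 7.37 ± 0.317 to 4.43 ± 0.362 CPM but did not pass in TPM. *SLC38A9*, a lysosomal carrier that informs mTORC1 of arginine, had a log2 fold change of -0.10 (adjusted p = 0.285 from edgeR) and 0.06 with total counts. The median log2 fold change of the list was 0.05. With total counts 6 of the list were called higher.

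Of the mitochondrial amino acid carriers, 9 of 11 were tested. In this list 3 were higher, 5 were lower and 1 did not pass, with a median log2 fold change of -0.28, beside 35.5% higher and 35.3% lower among all tested genes. *SFXN1*, a serine carrier, fell from 121 ± 5.15 to 27.4 ± 1.90 CPM (mean ± SD, n = 3), a log2 fold change of -2.14 (SE 0.07, adjusted p = 1.8e-14 from edgeR). *SLC25A13*, an aspartate and glutamate carrier, fell from 37.1 ± 1.53 to 19.1 ± 0.726 CPM. *SLC25A29*, a carrier of basic amino acids, rose from 24.7 ± 1.33 to 39.4 ± 2.06 CPM, and *SLC25A38*, a glycine carrier, rose from 35.1 ± 1.66 to 48.6 ± 1.89 CPM.

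The amino acid response list held 22 genes of the ATF4 pathway, of which 20 were tested. Of these 11 were higher and 6 were lower in edgeR at the same threshold, with a median log2 fold change of 0.22. Among all tested genes 35.5% were higher and 35.3% lower. *ATF4* itself rose from 179.5 ± 6.89 to 202 ± 7.26 CPM (mean ± SD, n = 3), a log2 fold change of 0.17 (adjusted p = 0.00598 from edgeR). *DDIT3* rose from 4.79 ± 0.575 to 7.89 ± 0.0329 CPM and *TRIB3* from 10.1 ± 0.365 to 15.3 ± 1.30 CPM. *ATF3* rose from 2.77 ± 0.344 to 4.64 ± 1.14 CPM but did not pass in TPM without a filter. *SESN2* rose from 14.8 ± 1.05 to 18.9 ± 0.947 CPM. In contrast, *PHGDH* and *PSAT1*, enzymes of serine synthesis, fell, with log2 fold changes of -2.06 and -1.33. *ASNS*, the asparagine synthetase, was at 23.8 ± 1.46 and 26.6 ± 2.29 CPM, with overlapping groups and adjusted p = 0.0938 from edgeR. It passed with total counts (0.32), upper-quartile scaling (0.25) and TPM (0.37), and without WNK463 replicate 3 (0.22), where the adjusted p was 0.0479 in edgeR. Over all 15 alternatives its adjusted p ranged from 0.00434 to 0.357. *CHAC1* had 15 to 21 counts per sample and a log2 fold change of -0.03 (SE 0.34).

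Of 35 genes of amino acid sensing by mTORC1, 34 were tested, 11 were higher and 15 were lower, with a median log2 fold change of -0.06. The share called was near the 70.8% of all tested genes. *CASTOR2*, of the family that senses arginine, rose from 7.64 ± 1.85 to 17.1 ± 0.529 CPM and *BMT2*, an *S*-adenosylmethionine sensor, from 18.2 ± 1.61 to 31.3 ± 2.54 CPM (mean ± SD, n = 3). *NPRL3* and *DEPDC5*, 2 of the 3 subunits of the complex that restrains mTORC1 when amino acids are scarce, fell from 60.7 ± 1.64 to 28.3 ± 1.05 CPM and from 40.3 ± 1.37 to 22.8 ± 2.19 CPM. *NPRL2*, the other subunit, was 25.4 ± 1.82 CPM in Control and 28.2 ± 1.44 CPM with WNK463, with overlapping replicates and a log2 fold change of 0.15 (SE 0.08, adjusted p = 0.109 from edgeR). In TPM the *NPRL2* replicates did not overlap, with means of 32.3 ± 2.22 in Control and 41.4 ± 2.70 with WNK463 (mean ± SD, n = 3). The listed genes of the kinase complex itself, *MTOR*, *RPTOR* and *MLST8*, were also lower. Their log2 fold changes were -0.51, -0.50 and -0.37, each with an adjusted p below 0.05 from edgeR. In TPM the *MLST8* replicates overlapped. The activity of mTORC1 was not measured. The number of lower genes of this list was 8 in TPM.

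Of 25 enzymes of glutamine, branched-chain amino acid, arginine and proline metabolism, 20 were tested, 3 were higher and 11 were lower, with a median log2 fold change of -0.36. The share called was near the 70.8% of all tested genes, of which 35.5% were higher and 35.3% lower. *GLUL*, the glutamine synthetase, fell from 357 ± 10.3 to 178 ± 4.59 CPM (mean ± SD, n = 3), a log2 fold change of -1.001 (SE 0.05, adjusted p = 3.0e-12 from edgeR). *BCAT1*, which transaminates branched-chain amino acids, fell from 50.1 ± 4.51 to 16.7 ± 1.70 CPM, and *PYCR3*, of proline synthesis, from 48.5 ± 4.79 to 16.8 ± 0.576 CPM. *DBT*, a subunit of the complex that degrades branched-chain keto acids, rose from 31.7 ± 1.01 to 47.0 ± 2.65 CPM. With total counts 6 genes of this list were called higher.

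**Figure D5:**
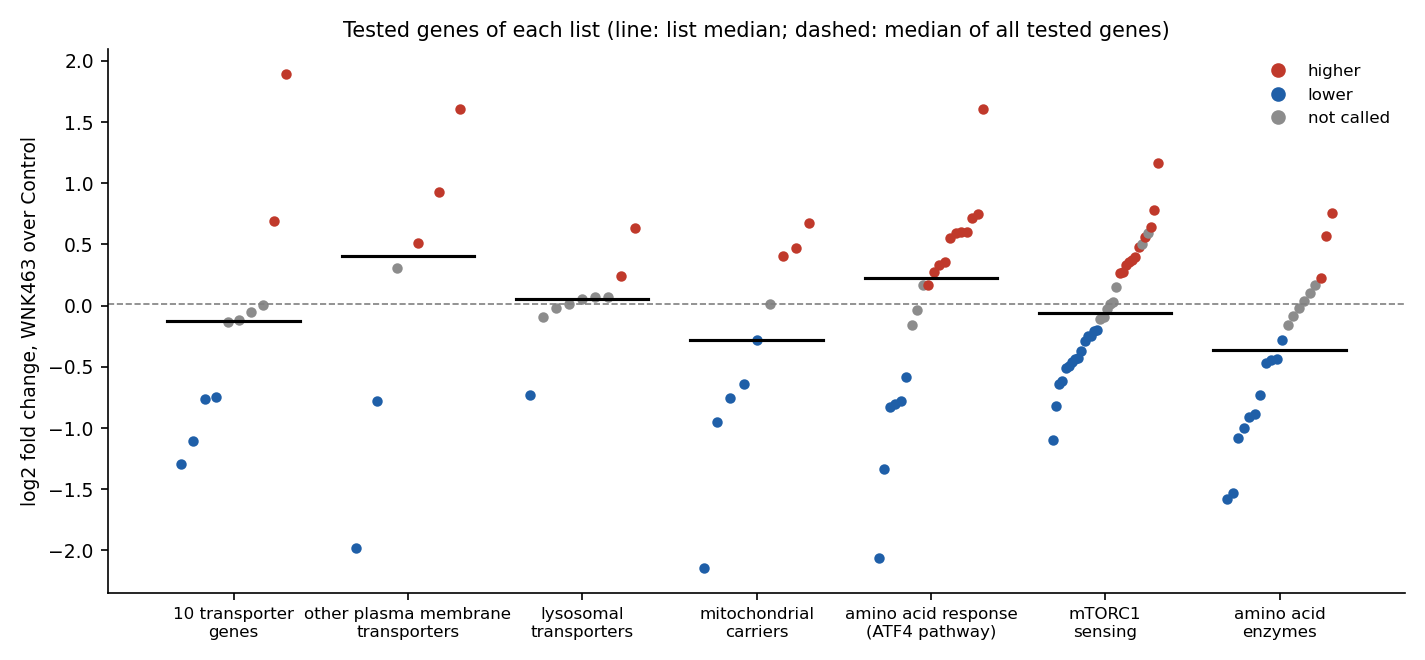
Log2 fold change of each tested gene, WNK463 over Control, for the 10 transporter genes and the 6 related lists. Red and blue points passed an adjusted p below 0.05 in edgeR and grey points did not. The black line is the median of the list and the dashed line is the median of all tested genes, 0.02. The enzymes have the lowest median, -0.36, and the other plasma membrane transporters the highest, 0.41, over 6 genes.

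The kinases of the WNK pathway were read as background. *WNK1* had 304 ± 9.37 CPM in Control and 324 ± 22.9 CPM with WNK463 (mean ± SD, n = 3), with overlapping groups. It did not pass on all 6 samples (adjusted p = 0.123 from edgeR), but was called higher in 6 of 15 alternatives. These were total counts (log2 fold change 0.24), upper-quartile scaling (0.18), the 3 fits on TPM (0.25) and the fit without WNK463 replicate 2 (0.13), where the adjusted p was 0.0402 in edgeR. Over all 15 alternatives its adjusted p ranged from 4.3e-04 to 0.588. *OXSR1*, a kinase that WNK kinases phosphorylate, rose from 94.8 ± 3.08 to 114 ± 2.89 CPM. *STK39*, the related kinase, had 11.2 ± 1.60 and 9.08 ± 1.20 CPM with overlapping groups and an adjusted p of 0.0482 from edgeR. It did not pass in 10 of 15 alternatives, and its adjusted p ranged from 0.0247 to 0.542. Among the samples left out, those without Control replicate 3, WNK463 replicate 1 and WNK463 replicate 2 gave log2 fold changes of -0.20, -0.33 and -0.21 that did not pass.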

How the data were processed

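RNA-seq of 3 Control and 3 WNK463 samples was analysed from a table of 20348 genes. The authors deposited an estimated count per gene and sample, as whole numbers without normalization, and a TPM value that sums to 1000000 per sample. The submitters' processing notes name fastp, Bowtie2, HISAT2, StringTie, RSEM, DESeq2, edgeR and GRCh38, with no role or order. The table also holds the authors' group means, fold changes and p-values, which were not used. The counts were rounded estimates, since 62 values of 0 stood beside a TPM above 0. Genes at 0 in all samples numbered 4605.

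Counts were tested with edgeR 4.0.16 in R 4.3.3 (quasi-likelihood test with TMM factors and the default filter on low counts, Benjamini-Hochberg adjustment over all 11973 genes tested). The TMM factors were 0.944 to 0.951 in Control and 1.05 to 1.06 with WNK463. CPM use these library sizes. Standard errors are the log2 fold change over the square root of the F statistic, and 95% intervals are 1.96 SE. TPM ratios were tested with an exact permutation test in scipy. The procedure was tested on simulated data with 200 changed genes. In the data themselves 8473 genes were called. The simulation thus cannot check the scaling or the false calls where most genes change. Alternatives were DESeq2 1.42.0, other scalings, other filters, limma 3.58.1 on log2(TPM + 1) and log2(TPM + 0.1), a replicate block and each sample left out. Replicates differed beyond sampling noise (chi-square per degree of freedom 2.64 to 7.13).

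The genes and lists were chosen with earlier results of these data known. Named genes are the 10 transporters, a set of genes named whatever their values, and from each list the 2 genes with the largest fold change in each direction that passed the test without overlap. Outside this rule stand *NPRL2*, *MTOR*, *RPTOR*, *MLST8*, the marker genes, *SLC7A10* and the overlapping genes and pseudogenes. No range over the alternatives is given for them. Some genes covered by this rule or by the marker lists are not reported here. Gene positions and overlaps are from GENCODE 29 and promoter sequences from RefSeq.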

Additional observations from a re-analysis of the deposited data

How the results depend on the processing

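*SLC7A1*, *SLC43A1*, *SLC1A5*, *SLC7A5*, *SLC38A1* and *SLC38A2* passed the test in the same direction in all 15 alternatives each. Their log2 fold changes ranged from -1.33 to -1.08, -1.15 to -0.91, -0.83 to -0.55, -0.78 to -0.55, 1.66 to 2.04 and 0.66 to 0.84, in the same order. The number of genes at least 2-fold lower was 1 in place of 2 with total counts and in the TPM fits. Over all genes, the TPM fits called 2658, 2646 (pseudocount 0.1) and 2635 (no filter) genes lower in place of 4222, and 266, 366 and 268 at least 2-fold lower. With 10 counts in every sample, 740 genes were at least 2-fold higher.

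Of the genes that did not pass, *SLC1A4*, *SLC3A2*, *SLC7A6*, *SLC7A7*, *SLC38A9* and *CHAC1* turned sign in some alternatives, and *ASNS* and *WNK1* in none. *SLC1A4* had -0.0019 with DESeq2 and -0.014 without a filter, and -0.056 to 0.048 with each sample left out. With total counts *SLC3A2* had 0.036, *SLC7A6* 0.10, *SLC7A7* 0.018, *SLC38A9* 0.056 and *CHAC1* 0.12. With upper-quartile scaling *SLC7A6* had 0.038 and *CHAC1* 0.053. In TPM, *SLC3A2* had 0.11, *SLC7A6* 0.20 or 0.21 and *SLC7A7* 0.013 or 0.020. *CHAC1* ranged from -0.20 to 0.069 with each sample left out. The cause was not tested.

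In the TPM fits the lists had 1 other plasma membrane transporter lower, 4 lysosomal transporters higher and 0 lower, 8 or 7 sensing genes lower and 5 enzymes higher. With total counts 6 lysosomal transporters and 6 enzymes were higher, as were 6 enzymes with upper-quartile scaling. On log2(TPM + 1) values the ratio of *SLC38A1* to *SLC38A2* differed by 0.85. For 34 other named genes, 475 of 510 combinations kept the call and direction, 17 did not pass, 12 passed in addition and 6 turned sign.

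Same-numbered samples did not deviate together (correlations 0.02, -0.01 and -0.05 across genes), so no shared effect of the replicate number was seen. These correlations cannot tell whether same-numbered samples were cultured or processed together. With the replicate block 8398 genes were called in place of 8473, and 4 of the 10 transporters were lower and 2 higher.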
